A study of Homo sapiens with 8 samples.

Results

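The estrogen-related receptors are a family of 3 nuclear receptors, encoded by ESRRA, ESRRB and ESRRG, and they were examined here together with the genes of 3 proteins that tune them: the coactivators PPARGC1A and PPARGC1B and the corepressor NRIP1. All probe sets that the platform annotation assigns to 1 of these 6 genes alone were taken, which gave 18 of the 44988 single-gene probe sets on the array and 6 of 18132 genes. ESRRG was chosen on these same arrays, because its brightest probe set had the lowest podofilox minus control difference of all 18132 genes, and the other 5 genes were chosen by their known relation to it. The differences of the 6 genes between the groups are therefore a description, with no test. The measurements come from AGS, an established line of human gastric adenocarcinoma cells, as 4 arrays of cells exposed to podofilox at 3.4 nM for 72 hours and 4 arrays of control cells. Podofilox is a plant toxin that binds tubulin and stops microtubules from growing. The labels give no time in culture for control cells and do not say whether they were given the drug's solvent. Whether arrays of a group came from separate cultures is not stated either, so p-values reflect the spread between arrays, which may be technical.

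Estrogen-related receptors resemble the estrogen receptors in sequence but do not bind estrogen. They bind a DNA element around AAGGTCA, often as monomers, and their activity is set largely by coregulators instead of a hormone. The PGC-1 proteins, encoded by PPARGC1A and PPARGC1B, bind them and raise genes of mitochondrial respiration and fat oxidation. NRIP1, also called RIP140, opposes this by recruiting repressors. In mice, the ESRRG protein is abundant in tissues of high energy demand and in the acid-secreting parietal cells of the stomach.

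ESRRG lies on chromosome 1, and RefSeq gives it 8 separate transcription starts, so its transcripts can begin at many places. The windows around these starts (250 bases before to 50 after each) and those of the other 5 genes came to 18 and were searched on both strands for TCAAGGTCA, the extended element of these receptors, and for its core AAGGTCA, which lies inside it. The extended element was in 0 of the 18 windows and in 0.353% of 35116 windows of all genes. The core was in 1 of the 18, an ESRRG window, and in 3.92% of all windows. The receptor target genes listed further below had 24 windows, of 21 genes. Of these 24, the extended element was in 0 and the core in 1, of SUCLA2. The ESRRG window is shown because it belongs to the gene with the large difference and carries the receptors' own core element. It covers chr1:217076943-217077242 on the minus strand of GRCh38.p14 and was taken from RefSeq; the capitals mark the core, whose first base lies 61 bases before the start. A match of letters does not show that a receptor binds there.
ESRRG start window: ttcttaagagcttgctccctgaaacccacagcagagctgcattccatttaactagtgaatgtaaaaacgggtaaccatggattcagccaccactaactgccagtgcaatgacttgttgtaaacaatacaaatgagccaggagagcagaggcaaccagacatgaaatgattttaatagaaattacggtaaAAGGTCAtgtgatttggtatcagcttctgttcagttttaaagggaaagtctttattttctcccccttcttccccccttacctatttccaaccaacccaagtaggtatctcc

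Podofilox-treated cells had less ESRRG mRNA than control cells on each of its 7 probe sets, by 1.54-fold to 2.39-fold, while its relatives ESRRA and ESRRB and the coregulator genes PPARGC1A, PPARGC1B and NRIP1 lay within 0.23 log2 units of control on each probe set. Averaged over its 7 probe sets, ESRRG read 5.85, 5.87, 5.85 and 5.87 on podofilox arrays 1 to 4, against 6.89, 6.91, 6.78 and 6.82 on control arrays 1 to 4. The means were 5.86 ± 0.01 with podofilox and 6.85 ± 0.06 in control cells (SD, n = 4 each), a difference of -0.99 on the log2 scale, or 1.99-fold lower. Every podofilox array was below every control array, by far more than the arrays of a group differed. RNA was taken from whole cultures, so fewer cells with the transcript and less transcript per cell cannot be told apart.

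The 7 probe sets are annotated to 7 different sequence records of ESRRG, and the differences between the groups ran from -1.26 to -0.62. The lowest difference was on probe set 11749456_a_at, with 5.40, 5.66, 5.77 and 5.60 on podofilox arrays against 6.92, 6.85, 6.69 and 7.005 on control arrays. Probe set 11729080_a_at read 5.57, 5.60, 5.84 and 5.58 on podofilox arrays against 6.87, 6.90, 6.70 and 6.75 on control arrays. Probe set 11756583_a_at read 6.64, 6.66, 6.35 and 6.63 on podofilox arrays against 7.75, 7.60, 7.70 and 7.66 on control arrays. On these 3 probe sets the differences were -1.26 (SE 0.09), -1.16 (SE 0.07) and -1.11 (SE 0.07), or 2.39-fold, 2.23-fold and 2.15-fold lower, and the groups were at least 0.86 log2 units apart at their nearest arrays.

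The brightest probe set, 11729079_s_at, read 6.99, 7.02, 6.91 and 6.71 on podofilox arrays against 7.94, 8.02, 7.80 and 7.85 on control arrays. This is a set of the _s_at kind, whose probes can bind more than 1 transcript, and its difference was -0.998 (SE 0.08). Probe set 11737691_a_at read 6.15, 6.01, 5.83 and 6.06 on podofilox arrays against 7.001, 7.09, 6.91 and 6.98 on control arrays, a difference of -0.98 (SE 0.07). The next, 11741090_a_at, read 6.15, 5.89, 6.03 and 6.28 on podofilox arrays against 6.98, 7.06, 6.74 and 6.89 on control arrays. Its difference of -0.83 (SE 0.09) came to -1.0001 between the arrays numbered 1 and 2 and to -0.66 between those numbered 3 and 4, while 11729080_a_at gave -1.30 and -1.01 in the same subsets. The dimmest, 11741647_a_at, read 4.02, 4.22, 4.24 and 4.23 on podofilox arrays against 4.76, 4.85, 4.95 and 4.63 on control arrays, a difference of -0.62 (SE 0.08). Its mean lay below the first quartile of all probe set means (4.63).

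**Figure D1:**
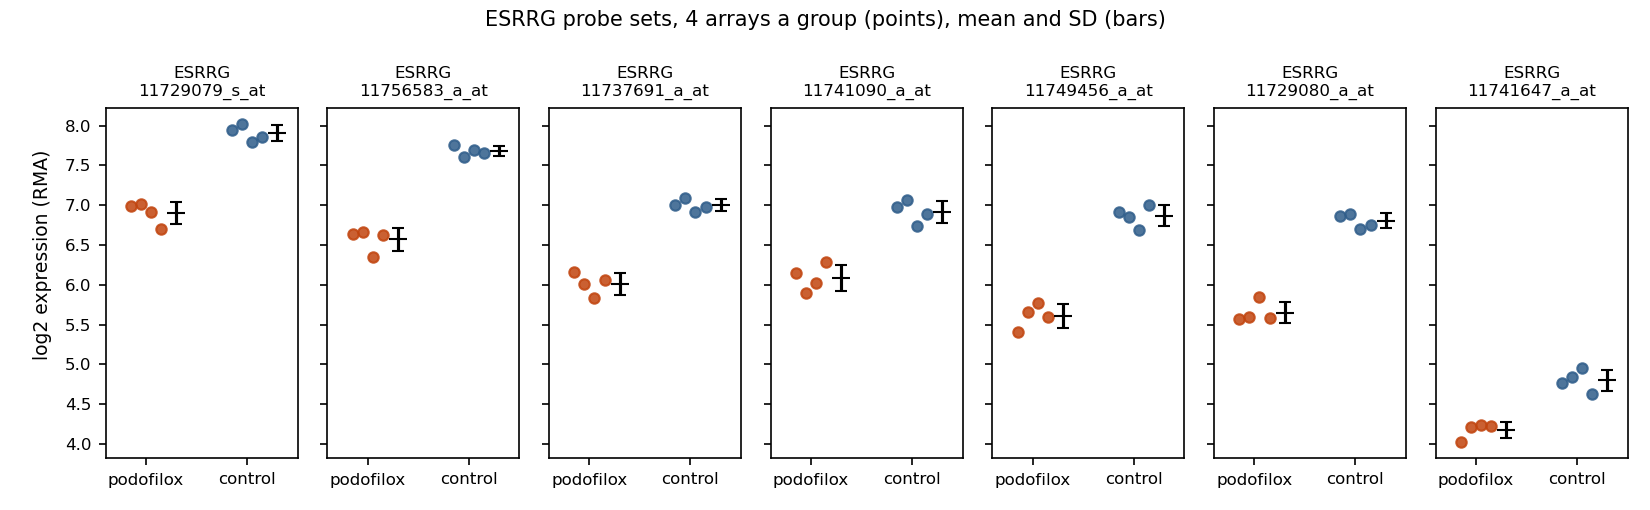
log2 expression (RMA) of the 7 ESRRG probe sets, podofilox arrays on the left of each panel and control arrays on the right, with 1 point an array and the mean and SD as a bar beside them (n = 4 each). The groups are apart in every panel, and the smallest gap between nearest arrays is 0.39 on 11741647_a_at.

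Ordered by difference among the 44988 single-gene probe sets, 5 of the ESRRG probe sets held places 1 to 5 from the bottom, and the remaining 2 held places 22 and 128. ESRRG was put forward for this, so the places only describe how it was picked. Over the 8 arrays the 21 pairs of ESRRG probe sets correlated at 0.88 to 0.99 (Pearson's r), since all of them separate the groups. With each group's mean removed, the same pairs correlated at -0.78 to 0.60, with a median of -0.04, so the likeness of the probe sets came mostly with the step between the groups. All pairs were read on the same 8 arrays.

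The sister receptors stayed near control. ESRRA, the most widely expressed of the family, read 8.05, 8.07, 8.00 and 8.07 on podofilox arrays against 8.09, 8.03, 7.98 and 8.00 on control arrays on probe set 11718526_a_at. Its other set, 11757487_x_at, read 9.40, 9.38, 9.30 and 9.47 on podofilox arrays against 9.38, 9.49, 9.40 and 9.45 on control arrays. The groups overlapped on both, with differences of 0.03 (SE 0.05, 95% interval -0.07 to 0.13) and -0.05 (SE 0.05, 95% interval -0.16 to 0.07). ESRRB, best known from pluripotent stem cells, was represented by 1 dim probe set with 3.34, 3.43, 3.38 and 3.56 on podofilox arrays against 3.48, 3.41, 3.57 and 3.54 on control arrays. The groups overlapped there too, and at a percentile of 6.14 by brightness among the single-gene probe sets its difference of -0.07 (SE 0.06) says little about the gene.

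The coactivator gene PPARGC1A, which encodes PGC-1 alpha, gave no common direction over its 4 probe sets. The brightest, 11723404_at, read 7.17, 6.94, 6.83 and 6.91 on podofilox arrays against 6.86, 6.79, 6.84 and 6.82 on control arrays, a difference of 0.13 (SE 0.07). Probe set 11723403_at read 5.82, 5.68, 5.45 and 5.13 on podofilox arrays against 5.44, 5.43, 5.63 and 5.77 on control arrays. Its difference of -0.05 (SE 0.14) had opposite signs in the subsets, with 0.31 for the arrays numbered 1 and 2 and -0.41 for those numbered 3 and 4. The 2 other sets, 11750479_a_at and 11750243_a_at, were dim and differed by -0.04 (SE 0.04) and -0.15 (SE 0.06), with overlapping groups on all 4 sets.

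PPARGC1B encodes PGC-1 beta, the closest relative of PGC-1 alpha. On 11761361_x_at it read 6.48, 6.37, 6.31 and 6.44 on podofilox arrays against 6.44, 6.35, 6.51 and 6.53 on control arrays, a difference of -0.05 (SE 0.06). On the dim set 11737101_a_at it read 3.65, 3.69, 3.78 and 3.91 on podofilox arrays against 3.91, 3.80, 4.09 and 4.12 on control arrays, a difference of -0.22 (SE 0.08). The groups overlapped on both sets, since podofilox array 4 lay above control array 2 on each.

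NRIP1 was the only other member with separate groups on a probe set. On 11720153_s_at it read 8.05, 8.00, 7.94 and 8.05 on podofilox arrays against 8.30, 8.31, 8.23 and 8.11 on control arrays, a difference of -0.23 (SE 0.06), or 1.17-fold lower. The nearest arrays of the 2 groups were only 0.06 apart. On 11720154_at it read 7.22, 7.09, 7.002 and 7.06 on podofilox arrays against 7.10, 7.40, 7.17 and 7.17 on control arrays, where the groups overlapped and the difference was -0.12 (SE 0.07).

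In all, the podofilox arrays lay wholly below the control arrays on 8 of the 18 probe sets, 7 of ESRRG and 1 of NRIP1, and wholly above on 0. Over all single-gene probe sets 13.8% lay wholly below and 10.5% wholly above, and because the members were chosen with this contrast known, nothing is read from the comparison. Apart from ESRRG, the 11 probe sets had differences of -0.23 to 0.13. No filter on brightness was applied, so all 18 are counted, and 5 of them had a mean below the first quartile: 2 of PPARGC1A and 1 each of ESRRB, ESRRG and PPARGC1B.

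**Figure D2:**
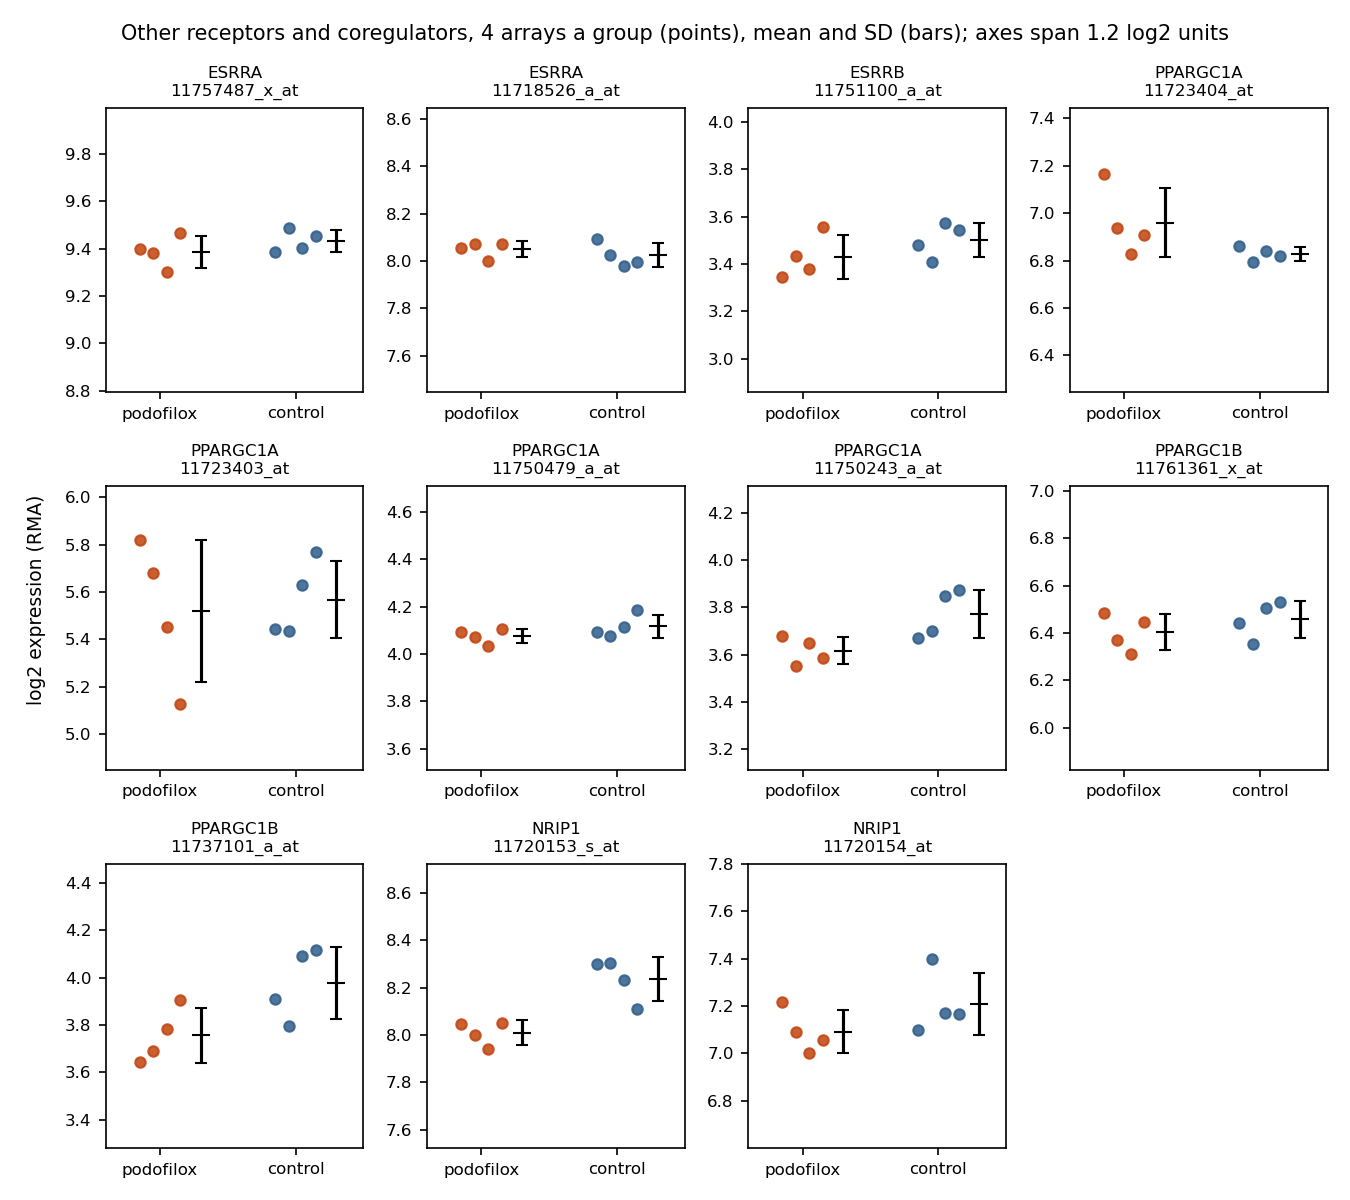
log2 expression (RMA) of the 11 probe sets of ESRRA, ESRRB, PPARGC1A, PPARGC1B and NRIP1, podofilox arrays left and control arrays right in each panel, 1 point an array, mean and SD as a bar (n = 4 each). The groups overlap in every panel except NRIP1 11720153_s_at.

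**Figure D3:**
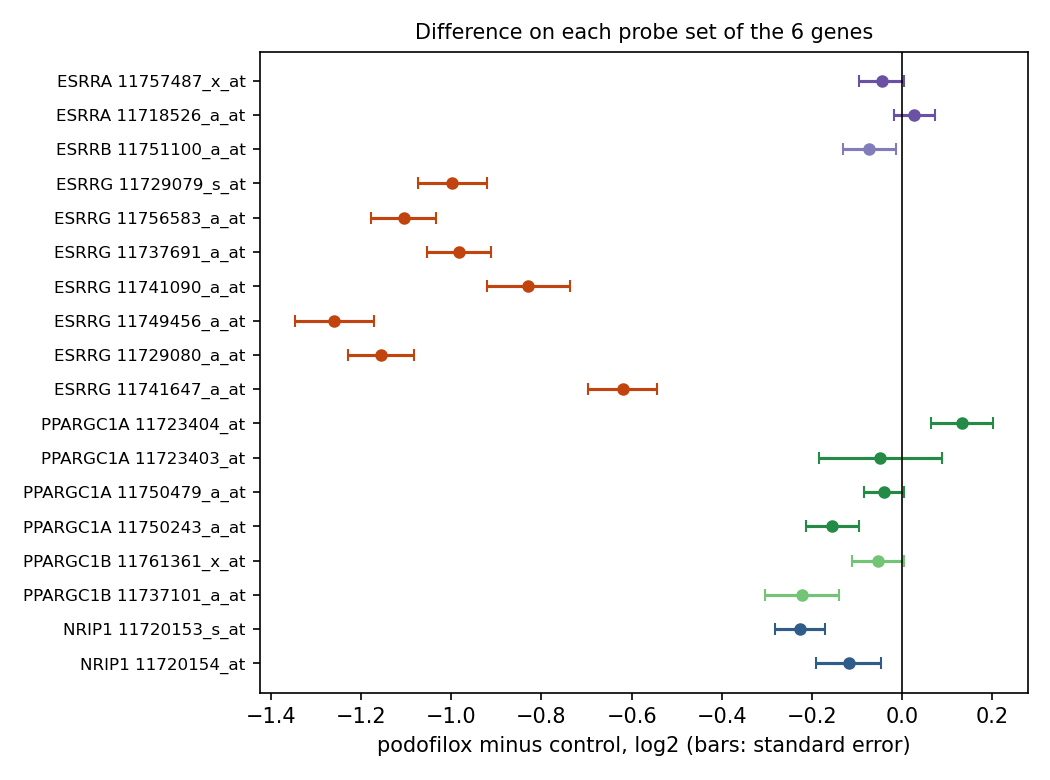
Podofilox minus control difference (log2) of each of the 18 probe sets, with its standard error as a bar. The 7 ESRRG sets lie between -1.26 and -0.62 and the other 11 between -0.23 and 0.13.

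The genes around these receptors were tested with limma over all 18132 genes, each read from its brightest single-gene probe set, with rises and falls called at a Benjamini-Hochberg adjusted p under 0.05. By that rule 21.0% of all genes changed, 8.55% upward and 12.5% downward, with a median difference of 0.01. Dim genes are counted in that 21.0%, and the share was larger among genes above the median signal alone. The lists below were drawn up from textbook knowledge with earlier results of these arrays known, so they describe and do not test the pathway.

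Of 27 measured genes that the estrogen-related receptors are described to bind or regulate in other cells, 2 rose and 3 fell (18.5%), and the list's median difference was -0.03. TFF1, a trefoil peptide of the gastric surface whose promoter these receptors bind in breast cancer cells, was at 9.01 ± 0.12 with podofilox and 7.93 ± 0.11 in control cells (SD, n = 4 each), so it rose while ESRRG was lower (difference 1.08, SE 0.07, limma adjusted p = 1.87e-05). TFAM, which packages and transcribes mitochondrial DNA, fell by 0.22 (SE 0.05, limma adjusted p = 0.00728). NRF1, a regulator of nuclear genes for mitochondria, fell by 0.32 (SE 0.09), and the fatty acid carrier FABP3, named after its value was seen, fell by 0.18 (SE 0.06). VEGFA, the growth factor of blood vessels, rose by 0.20 (SE 0.06). PDK4, a kinase that turns off pyruvate oxidation and a classic target of these receptors, was dim, at 3.70 ± 0.07 with podofilox and 3.74 ± 0.12 in control cells (SD, n = 4 each), and did not pass the test (difference -0.04, limma adjusted p = 0.755).

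Only the calls of TFF1 and TFAM among these 5 held on leaving out each array in turn. The call of NRF1 ended without control array 1, 3 or 4 or podofilox array 4 (limma adjusted p up to 0.0838), that of VEGFA without control array 1, 3 or 4 or podofilox array 2, 3 or 4 (up to 0.0918), and that of FABP3 without control array 1, 2 or 4 or podofilox array 1, 3 or 4 (up to 0.114). The count of the list was then 2 without control array 1 or 4 and 3 without podofilox array 4. VEGFA also lost its call on the mean of its probe sets (0.09, limma adjusted p = 0.115) and without _x_at and _s_at sets (0.11, limma adjusted p = 0.335). The call of FABP3 also ended without _x_at and _s_at sets (limma adjusted p = 0.0508) and with an intensity trend and robust estimation together (0.0950), and NRF1 was at -0.21 on the mean of its probe sets.

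In the tricarboxylic acid cycle and pyruvate dehydrogenase, the oxidation steps that these receptors and PGC-1 proteins are known to raise, 2 of 19 genes fell and 0 rose by limma (10.5%), with a median of -0.06. At an unadjusted p under 0.05, 4 fell and 0 rose. DLD, the shared dehydrogenase subunit of the pyruvate and oxoglutarate complexes, was at 11.53 ± 0.05 with podofilox and 11.71 ± 0.04 in control cells (SD, n = 4 each) and fell by 0.18 (SE 0.04). PDHB, a subunit of pyruvate dehydrogenase, fell by 0.17 (SE 0.05). DLD lost its call without control array 4 (limma adjusted p = 0.0516) and on the mean of its probe sets (-0.13, limma adjusted p = 0.0826). PDHB lost its call without control array 2, 3 or 4 or podofilox array 1, 3 or 4 (up to 0.0972). The list had 0 calls without control array 4, where 3 genes were under an unadjusted p of 0.05, and 1 without control array 2 or podofilox array 1, 3 or 4.

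Fatty acid oxidation, the other main programme of these receptors, went both ways, with 2 of 18 genes rising and 3 falling (27.8%) and a median of -0.08. ECHS1 and DECR1, enzymes of the beta-oxidation spiral and of unsaturated fatty acids, fell by 0.29 (SE 0.05, limma adjusted p = 0.00192) and 0.28 (SE 0.05, limma adjusted p = 0.00308). ECI2, an isomerase for unsaturated chains, rose by 0.18 (SE 0.04), and ETFB, which passes electrons from fat oxidation to the respiratory chain, rose by 0.21 (SE 0.05). CPT2, named after its value was seen, fell by 0.13 (SE 0.04). ACADM, also named after its values were seen, was at -0.25 on its brightest set and did not pass the test (limma adjusted p = 0.0698). Its other sets ran from -0.40 to -0.27. The count was 3 without control array 1 or 3 or podofilox array 2, and 2 without control array 4. The calls of ETFB ended without any of these 4 arrays (limma adjusted p up to 0.0570), that of ECI2 without control array 4 (0.0517), and that of CPT2 without any 1 array except podofilox array 1 (up to 0.112). On the mean of its probe sets ECI2 was at 0.11 and did not pass the test (limma adjusted p = 0.0886). CPT2 also lost its call under renewed quantile normalization, median centring or without _x_at and _s_at sets (limma adjusted p of 0.0687, 0.0702 and 0.0615).

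Of 27 other coregulators of nuclear receptors, 10 fell and 2 rose (44.4%, beside 21.0% of all genes), with a median of -0.09. Most of the 27 were above the median signal. When only genes above it were tested, the share of all genes called was close to 44.4%, far above 21.0%. In that setting 14 of 24 coregulators were called. The part of brightness in the higher share was not tested. CREBBP, an acetyltransferase that joins active receptors, was at 9.28 ± 0.03 with podofilox and 9.69 ± 0.08 in control cells (SD, n = 4 each) and fell by 0.41 (SE 0.05, limma adjusted p = 0.00038). NCOA6, a coactivator of many nuclear receptors, fell by 0.38 (SE 0.04), and PPRC1, the third member of the PGC-1 family, fell by 0.31 (SE 0.04). NCOA7, a coactivator of the estrogen receptor, rose by 0.39 (SE 0.04, limma adjusted p = 0.000162). The calls of these 4 genes held on leaving out each array in turn and under the other 8 alternatives, although CREBBP was at -0.20 without _x_at and _s_at sets.

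Of 36 other measured nuclear receptor genes, 3 rose and 3 fell (16.7%), with a median of 0.03 and differences from -0.28 to 0.23, beside -0.998 for ESRRG on its brightest set. This range covers the brightest set of each gene only. NR5A2, named after its values were seen, was at -0.15 on its brightest set and did not pass the test (limma adjusted p = 0.282). Its 3 other sets ran from -0.58 to -0.16. PPARD, a receptor for fatty acids, was at 7.56 ± 0.06 with podofilox and 7.36 ± 0.05 in control cells (SD, n = 4 each) and rose by 0.21 (SE 0.05, limma adjusted p = 0.0126). NR4A1 and NR2C1, named after their values were seen, rose by 0.17 (SE 0.04 each). NR2C2, an orphan receptor, fell by 0.21 (SE 0.05), HNF4G, a receptor of gut and kidney epithelium, by 0.22 (SE 0.05), and NR1I3, a sensor of foreign compounds, by 0.28 (SE 0.07). The call of NR4A1 ended without control array 3 (limma adjusted p = 0.0530), and that of NR2C1 without control array 1, 3 or 4 or podofilox array 2 or 4 (up to 0.0782). On the mean of their probe sets NR2C2 (-0.12), HNF4G (-0.08) and NR1I3 (-0.01) did not pass the test (limma adjusted p = 0.109, 0.273 and 0.917), and neither did NR2C1 (0.08, limma adjusted p = 0.155). Without _x_at and _s_at sets NR2C2 was at -0.02 (limma adjusted p = 0.887) and NR4A1 at 0.26.

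Among 22 genes for proteins that act on PPARGC1A, 3 rose and 2 fell (22.7%), with a median of -0.01. PRKAB2, a subunit of the energy sensor AMPK, was at 9.18 ± 0.06 with podofilox and 8.82 ± 0.03 in control cells (SD, n = 4 each) and rose by 0.36 (SE 0.04, limma adjusted p = 0.000416). FBXW7, a ubiquitin ligase subunit that marks PGC-1 alpha for degradation, rose by 0.23 (SE 0.05), and the transcription factor FOXO1 rose by 0.15 (SE 0.04). RNF34, another ubiquitin ligase for PGC-1 alpha, fell by 0.29 (SE 0.05), although its second probe set was higher (0.18) and their mean did not pass the test (-0.05, limma adjusted p = 0.333). YY1, a DNA-binding partner of PGC-1 alpha named after its value was seen, fell by 0.16 (SE 0.05). The count was 3 without control array 1, 2 or 4 or podofilox array 2 or 4. FOXO1 lost its call without any control array or podofilox array 2 or 4 (limma adjusted p up to 0.112), and YY1 without control array 1, 2 or 4 or podofilox array 1, 2 or 4 (up to 0.0969). On the mean of their probe sets FOXO1 (0.11) and YY1 (-0.05) did not pass the test (limma adjusted p = 0.112 and 0.313). YY1 also lost its call under median centring (0.0680) and without _x_at and _s_at sets (0.142).

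**Figure D4:**
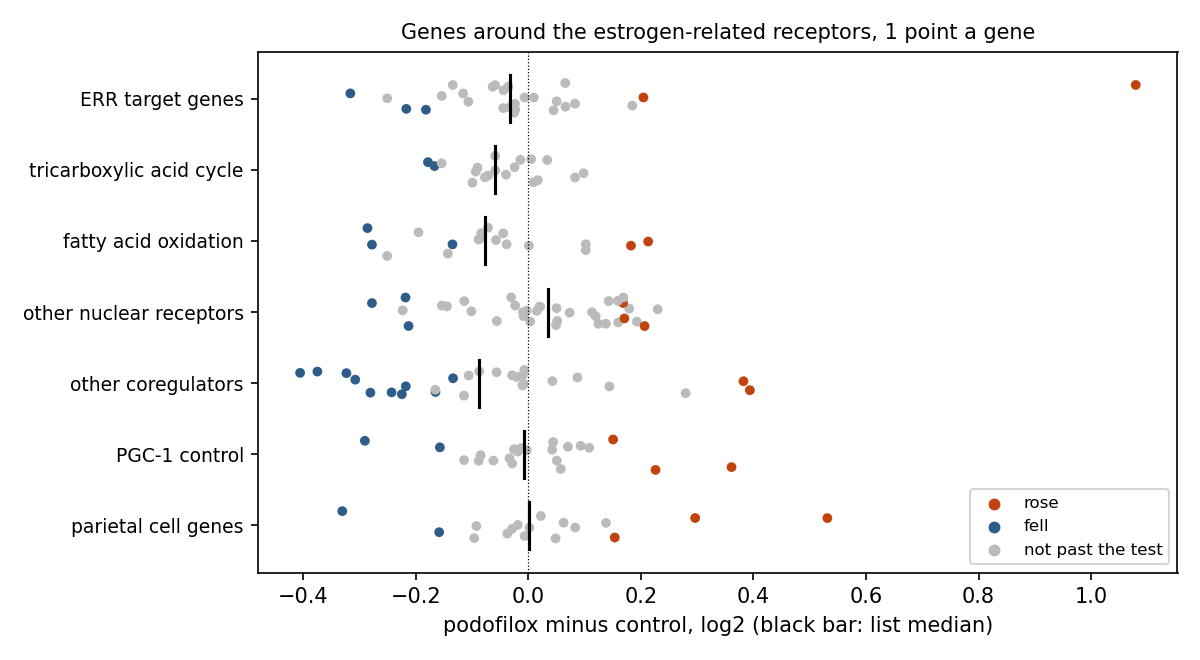
Podofilox minus control difference (log2) of each measured gene of the 7 lists, 1 point a gene, coloured by whether it rose, fell or did not pass the limma test, with the list median as a black bar. Coregulators hold 12 changed genes of 27, and TFF1 (1.08) is the point farthest to the right.

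Parietal cells are where the stomach is known to use ESRRG in mice, and their defining genes were dim in AGS cells of both groups. ATP4A, the catalytic subunit of the proton pump, was at 5.21 ± 0.20 with podofilox and 5.25 ± 0.15 in control cells (SD, n = 4 each), and ATP4B, its other subunit, was at 3.79 ± 0.08 with podofilox and 3.76 ± 0.02 in control cells (SD, n = 4 each). Neither passed the test (limma adjusted p = 0.843 and 0.800). Of 17 genes of the list, 3 rose and 2 fell (29.4%), with a median of 0.0018. EZR, an actin linker at the cell surface that many epithelia use, rose by 0.53 (SE 0.04, limma adjusted p = 3.84e-05), and the histamine receptor gene HRH2 rose by 0.15 (SE 0.04). The anion transporter gene SLC26A9, named after its value was seen, rose by 0.30 (SE 0.09). SLC4A2, an anion exchanger, fell by 0.33 (SE 0.06), and VEGFB fell by 0.16 (SE 0.04). HRH2 turned to -0.05 without _x_at and _s_at probe sets, and on the mean of their probe sets HRH2 (0.07) and SLC26A9 (0.13) did not pass the test (limma adjusted p = 0.257 and 0.305), while SLC4A2 was at -0.19. Renewed quantile normalization also ended the calls of HRH2 (limma adjusted p = 0.0569) and SLC26A9 (0.0623), and an intensity trend with robust estimation that of HRH2 (0.127). The calls of HRH2, SLC26A9 and VEGFB each ended on leaving out 1 of several arrays (limma adjusted p up to 0.0802, 0.113 and 0.0831), and the count was 3 without control array 2, 3 or 4 or podofilox array 2, and 2 without podofilox array 4.

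Over the 8 arrays, the genes whose level ran most like that of ESRRG (the mean of its 3 probe sets 11737691_a_at, 11741090_a_at and 11756583_a_at) were MCM2, a subunit of the replicative helicase (Pearson's r = 0.997), GNL3L, a nucleolar GTPase (0.996), RHNO1, a partner of the DNA damage checkpoint clamp (0.995), CYP1A1, a monooxygenase of foreign compounds (0.995), and GCFC2 (0.995). The genes that ran most opposite were GADD45B, a stress gene (-0.996), LIMA1, an actin-binding protein (-0.993), EZR (-0.992), HSPB8, a small heat shock protein (-0.991), and ENDOD1 (-0.991). CYP1A1 was at 8.51 ± 0.10 with podofilox and 9.23 ± 0.02 in control cells, and GADD45B at 9.03 ± 0.04 with podofilox and 8.40 ± 0.04 in control cells (SD, n = 4 each). Likeness of this kind was common, since 1342 genes had an r of at least 0.9 and 663 an r of -0.9 or less, and the 8 points are the same arrays in 2 groups.

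The array values as a whole were even: medians ran from 6.39 to 6.45, and Pearson's r across probe sets was 0.996 to 0.999 within a group and 0.995 to 0.997 between the groups. Epithelial markers were mostly bright, with a mean over 14 genes of 10.06 to 10.10 on podofilox arrays and 9.92 to 9.97 on control arrays. Of these, TFF1, CLDN4 and ELF3 rose and CDH17 fell. Dim in both groups were CLDN3 (4.82 with podofilox, 4.97 in control cells), CLDN18 (4.86 and 4.93) and TFF2 (5.54 and 5.29). The mean of 10 fibroblast markers was 4.78 to 4.94 on podofilox arrays and 4.78 to 4.95 on control arrays, with PDGFRA falling and 0 rising by limma (1 at an unadjusted p under 0.05). The mean of 9 immune cell markers was 6.12 to 6.17 on podofilox arrays and 6.00 to 6.10 on control arrays, with CD68 rising and 0 falling by limma (4 rising and 0 falling at an unadjusted p under 0.05). LYZ, the brightest of these markers, was at 13.62 with podofilox and 13.60 in control cells, which raises both means. The mean of 8 endothelial markers was 5.53 to 5.70 on podofilox arrays and 5.51 to 5.79 on control arrays, with CDH5 falling and 0 rising by limma (also 0 at an unadjusted p under 0.05). The call of CDH5 ended without podofilox array 2 or 3 (limma adjusted p up to 0.0519) and on the mean of its 2 probe sets (-0.12, limma adjusted p = 0.350), of which the other was higher by 0.21. On the mean of their probe sets PDGFRA was at 0.09 (limma adjusted p = 0.193) and ELF3 at 0.15. The part of these markers in the ESRRG difference was not tested.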

How the data were processed

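Messenger RNA of AGS cells was measured on 8 single-colour Affymetrix arrays, 4 with podofilox and 4 control. The deposited table holds log2 expression values that the authors made with RMA, per the submitters' processing notes; its software, version and options are unstated in these sources, and no detection calls were used. Values of 2.64 to 15.0 show the log2 scale.

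Of 49395 probe sets, 44988 had 1 gene in the platform annotation, 1832 several and 2473 none, and 102 were controls. The number of arrays limits the precision. limma 3.58.1 (R 4.3.3; lmFit and eBayes, group only, two-sided, Benjamini-Hochberg) was fitted over the 44988 probe sets for the standard errors of the 6 genes, and over 18132 genes, each by its brightest probe set, for the lists. The fit was tested on simulated data. The labels do not say whether same-numbered arrays were paired. Their deviations from the group means correlated at -0.24 to 0.09, which cannot settle it, and the main fit used no pairing. The 6 genes, the lists and the rule for named genes (up to 4 per list with the smallest p past the test, ATP4A, ATP4B, PDK4, TFF1, and the 5 most and 5 least like ESRRG) were chosen with earlier results of these data known. Alternatives were a brightness filter, renewed normalization, median centring, an intensity trend with robust estimation, blocks, other probe set rules and each array left out. Background correction could not be varied from RMA values. Figures used matplotlib 3.10.9 in Python 3.11.15.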

Additional observations from a re-analysis of the deposited data

Results flagged for a closer look

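Of 136 groups of 4 arrays tested for an array far from the other 3 by Dixon's criterion, 9 had one, and chance alone gives about 5% of groups. For ESRRG these were podofilox array 3 on 11729080_a_at (5.84, others 5.57 to 5.60), podofilox array 1 on 11741647_a_at (4.02, others 4.22 to 4.24) and podofilox array 3 on 11756583_a_at (6.35, others 6.63 to 6.66). Podofilox array 3 was thus the highest of its group on the first and the lowest on the last, and on each of the 3 probe sets the groups were still apart. The others were CDH5 on podofilox array 4 (4.85, others at 4.78), CREBBP on podofilox array 1 (9.24, others 9.29 to 9.30), NR2C2 on control array 2 (9.27, others at 9.19), EZR on control array 1 (11.72, others 11.79 to 11.80), ATP4A on control array 3 (5.48, others 5.15 to 5.199) and RHNO1 on control array 1 (8.89, others at 8.84).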

How the results depend on the processing

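The differences of the ESRRG probe sets had extremes of -1.36 and -0.56 over the 12 alternatives run on each. Leaving out or splitting arrays could not change their sign, since every podofilox array lay below every control array. Leaving out 1 array of 4 cannot move a difference by as much as the spread between arrays (the pooled SD within groups). Such values therefore do not measure stability. Of 216 alternative values of the members, 206 moved by less than that spread. The other 10 came from subsets of the arrays (those numbered 1 and 2, then 3 and 4): ESRRG 11729080_a_at -1.30 and -1.01, ESRRG 11741090_a_at -1.0001 and -0.66, PPARGC1A 11723403_at 0.31 and -0.41, PPARGC1A 11750243_a_at -0.0685 and -0.24, and PPARGC1B 11761361_x_at 0.0313 and -0.14. The 3810 called genes ranged from 2702 to 4449 over the alternatives. With the replicate number as a block the counts of changed genes were 3 receptor targets (5 without it), 0 of the tricarboxylic acid cycle (2 without it, 3 at an unadjusted p under 0.05), 3 for PGC-1 control and 3 parietal cell genes (5 each without it). An intensity trend and robust estimation, changed together, gave 9 receptor targets (2 up, 7 down) and 5 tricarboxylic acid cycle genes (0 up, 5 down). A brightness filter gave 4 of 19 tricarboxylic acid cycle genes and 3 of the 4 parietal cell genes it left. With this filter the called share of all genes was also larger than in the main setting. The share of the tricarboxylic acid cycle genes lay below it, and 4 parietal cell genes are too few to compare. Renewed quantile normalization or the mean of probe sets gave 3 parietal cell genes. On leaving out 1 array the counts ran from 2 to 4 for receptor targets, 0 to 2 for the tricarboxylic acid cycle, 2 to 7 for fatty acid oxidation, 3 to 5 for PGC-1 control and 2 to 4 for parietal cell genes. The fibroblast marker PDGFRA, which fell in the main setting, was higher by 0.0904 on the mean of its probe sets, and HRH2 was at -0.0512 without _x_at and _s_at sets. The cause of these changes was not tested. Dim probe sets, such as that of ESRRB, limit what can be read.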
